A study of Mus musculus with 11 samples.

Results

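The growth hormone axis of the liver was described here through 10 genes, chosen by symbol from the 36788 gene identifiers of the deposited expression table: the receptor Ghr, its kinase Jak2, the transcription factors Stat5a and Stat5b, the feedback inhibitors Socs2 and Cish, the repressors Bcl6 and Cux2, and the secreted products Igf1 and Igfals. All 10 passed the filter on low values and were tested. Liver mRNA was sequenced from wild-type C57BL/6 female mice older than 12 weeks, all of them ovariectomized (OVX) and kept on a high-fat diet (HFD). Of these, 5 mice (numbered 1, 2, 3, 4 and 6) received follicle-stimulating hormone (FSH) by daily intraperitoneal injection and 6 mice (numbered 1 to 6) received saline. The comparison asked how the liver transcriptome of OVX mice on HFD differed with FSH, and it held no group with ovaries or on a standard diet. According to the labels the whole liver was digested with papain before RNA extraction, so each library represents a mixture of cell types.

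Growth hormone binds its receptor on hepatocytes and activates the kinase JAK2, which phosphorylates the STAT5 proteins. STAT5 then enters the nucleus and induces genes such as Igf1, Igfals, Socs2 and Cish, and the SOCS2 and CISH proteins dampen the same pathway. In rodents the pituitary of males releases growth hormone in well separated pulses and that of females more continuously, and liver genes that differ between the sexes follow this pattern. BCL6, a repressor that is higher in male liver, and CUX2, a repressor that is higher in female liver, belong to this sex-dependent response.

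Values are in CPM, the reads of a gene scaled to a library total of 1000000. Between 10801891 and 19909327 reads were counted on genes per library, and every member had at least 26 reads in every liver. Fold changes are differences of mean log2(CPM + 0.5), FSH minus saline, tested with limma over 12733 genes and adjusted by the Benjamini-Hochberg method. This scale understates changes of low genes. Since the labels do not describe separate cages or cohorts, p-values measure only the spread between these livers. In a principal component analysis of all tested genes, FSH mouse 2 and saline mouse 2 lay highest on the second component (17.4% of the variance), so both are given by name below.

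Among the 10 members, Cux2 and Socs2 were higher and Stat5a and Stat5b were lower in FSH livers when compared with saline controls (adjusted p under 0.05). Cux2 was 3.91 times and Socs2 2.56 times the saline mean, whereas Stat5a and Stat5b were at 0.664 and 0.725 times the saline mean. Cish was on average higher and Bcl6 lower with FSH, but both groups overlapped and neither gene passed the adjusted test. Ghr, Jak2, Igf1 and Igfals did not pass it either, with fold changes between -0.03 and 0.13 on the log2 scale. The 4 called members out of 10 compare with a background of 1350 of 12733 genes (10.6%), which was 6.19% in the higher and 4.41% in the lower direction. The study's methods also ask for a log2 fold change over 1 in size. Cux2 and Socs2, both higher with FSH, met both thresholds, against 233 genes overall (1.83%, of which 0.887% higher and 0.942% lower). For the same 4 called members the FSH and saline livers did not overlap, as was the case for 849 of all genes tested (6.67%). The median log2 fold change was 0.04 over the members and 0.02 over all genes tested. In whole liver, fewer cells of a type and less RNA per cell cannot be told apart.

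**Figure D1:**
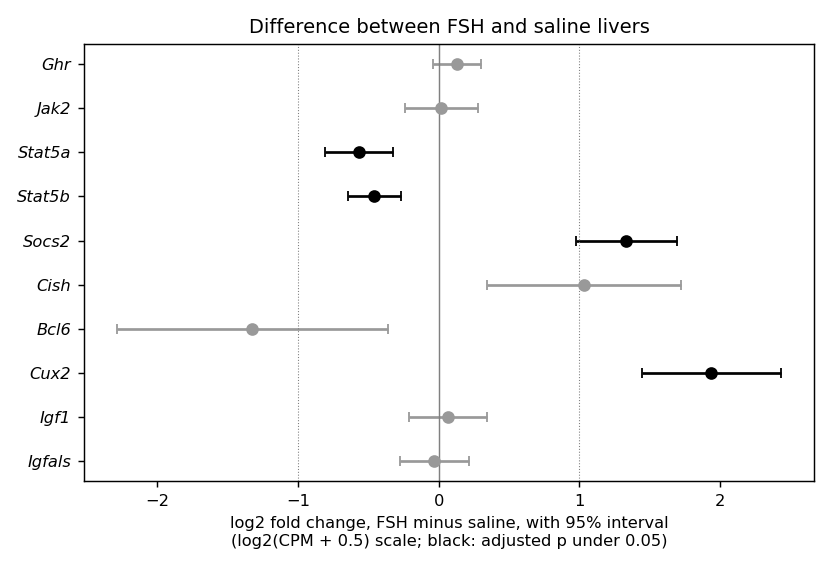
Log2 fold change of each of the 10 members between FSH and saline livers, on the log2(CPM + 0.5) scale with its 95% interval. Black points (Stat5a, Stat5b, Socs2 and Cux2) had an adjusted p under 0.05, grey points did not, and the dotted lines mark a log2 fold change of 1 in either direction.

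The receptor Ghr was among the more abundant members and differed little between groups. It lies on chromosome 15 (GRCm38, chr15:3317760-3583492, minus strand). Its level was 482.6, 481.9, 480.7, 464.7 and 459.1 CPM in FSH mice 1, 2, 3, 4 and 6, and ranged from 363.6 to 460.4 CPM (median 457.0) in saline mice. Only FSH mouse 6 lay below the highest saline value, which was that of saline mouse 2, and saline mice 1 (410.8 CPM) and 4 (363.6 CPM) were the lowest of all livers. FSH livers were also the more uniform for this gene, with a coefficient of variation of 2.33% against 9.12% in saline livers. Limma gave a log2 fold change of 0.13 ± 0.08 (SE) with an unadjusted p of 0.128 and an adjusted p of 0.348. The exact two-sided permutation test on the same log2 values over all splits of the livers gave an unadjusted p of 0.00866 (n = 5 and 6), where the smallest possible value is 0.00433.

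Jak2, which encodes the kinase bound to the receptor (chr19:29251828-29313080, plus strand), averaged 12.2 ± 0.962 CPM (SD) in the 5 FSH livers and 12.1 ± 2.17 CPM (SD) in the 6 saline livers. The FSH values of 12.4, 13.4, 10.9, 12.6 and 11.6 CPM all fell inside the saline range of 9.71 to 15.0 CPM (median 12.1), with saline mouse 2 at 14.0 CPM. Its log2 fold change of 0.02 had a 95% interval from -0.24 to 0.28 (adjusted p 0.947).

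Both STAT5 genes were lower in FSH livers, and for neither gene did the groups overlap. They are neighbours on chromosome 11, Stat5b at chr11:100780731-100850724 on the minus strand and Stat5a at chr11:100859351-100885169 on the plus strand. Stat5b, the form that predominates in liver, was at 40.2, 39.3, 35.6, 40.4 and 42.9 CPM in FSH mice 1, 2, 3, 4 and 6. In saline mice it ranged from 47.1 to 60.9 CPM (median 54.7), with saline mouse 2 at 60.2 CPM. Every FSH liver thus had less Stat5b than every saline liver. On the log2 scale the difference was -0.46 ± 0.09 (SE), with a 95% interval from -0.64 to -0.27 and an adjusted p of 0.00386.

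Stat5a, the less abundant form, was at 9.95, 12.0, 8.33, 9.37 and 10.4 CPM in FSH mice 1, 2, 3, 4 and 6. Saline mice ranged from 12.9 to 17.1 CPM (median 15.2), with saline mouse 2 at 13.6 CPM. FSH mouse 2 had the highest value of its group and saline mouse 2 the second lowest of its own, so for this gene the livers numbered 2 were closer to each other than the group means were. The log2 fold change was -0.57 ± 0.11 (SE), with a 95% interval from -0.81 to -0.33 and an adjusted p of 0.00488. Expressed as a ratio within each liver, Stat5b was 3.27 to 4.31 times Stat5a in CPM with FSH and 2.91 to 4.43 times with saline, which are overlapping ranges.

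Reads of the STAT5 genes can be mistaken for one another to a small extent. Of all stretches of 100 bases in their exons, the length of 1 read, 3.44% of those of Stat5a also occurred in Stat5b and 4.79% of those of Stat5b in Stat5a. An exon of Stat5a also overlaps Stat3 on the opposite strand, and whether strand was used in counting is not given in the sources used here. Stat3, another growth hormone-responsive factor, was at 60.6 to 77.0 CPM with FSH and 71.4 to 101.6 CPM with saline (log2 fold change -0.22, adjusted p 0.200). The part of Stat3 reads in the Stat5a difference was not tested.

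**Figure D2:**
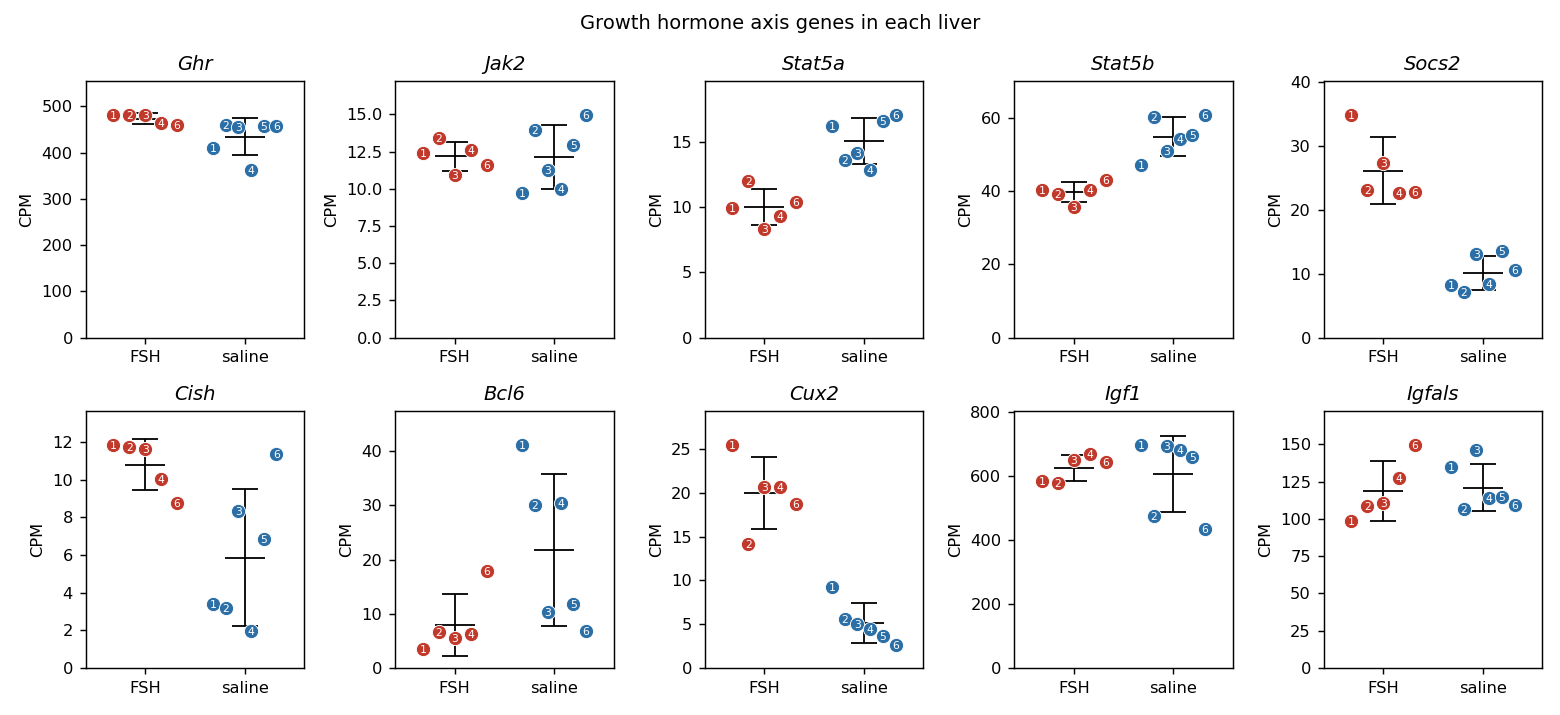
CPM of each member in each liver, with the FSH group in red and the saline group in blue. The number in a point is the mouse number, and the black bars give the group mean with 1 SD. Stat5a, Stat5b, Socs2 and Cux2 show no overlap between groups, whereas the saline livers are widely scattered for Cish and Bcl6.

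Of the feedback inhibitors among the members, only Socs2 was called. It encodes a ubiquitin ligase adaptor that limits growth hormone receptor signaling (chr10:95385362-95417180, minus strand). The FSH livers were at 34.9, 23.1, 27.2, 22.6 and 22.7 CPM, with FSH mouse 1 the highest and the other 4 close together. In saline livers Socs2 ranged from 7.20 to 13.5 CPM (median 9.50), and saline mouse 2 was the lowest. The lowest FSH liver was therefore well above the highest saline liver. This gave a log2 fold change of 1.33 ± 0.17 (SE), with a 95% interval from 0.97 to 1.69 and an adjusted p of 0.00017.

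Between the groups, Socs2 was higher and Stat5b lower with FSH, so their ratio separates the groups as each gene does. The ratio of Socs2 to Stat5b, both in CPM, was 0.529 to 0.866 in FSH livers and 0.120 to 0.256 in saline livers. Of the exon stretches of Socs2, 2.31% also occurred in Gm9847, which was listed at 0 in every library.

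Cish encodes another STAT5-induced inhibitor of cytokine receptor signaling and lies on chromosome 9 (chr9:107296026-107302784, plus strand). It was at 11.9, 11.7, 11.6, 10.01 and 8.76 CPM in FSH mice 1, 2, 3, 4 and 6, a coefficient of variation of 12.6%. The saline livers ranged from 1.98 to 11.4 CPM (median 5.13), with saline mouse 2 at 3.20 CPM, and their coefficient of variation was 61.9%. Saline mice 1, 2 and 4 lay between 1.98 and 3.40 CPM, while saline mice 3 and 5 reached 8.31 and 6.85 CPM and saline mouse 6 at 11.4 CPM lay inside the FSH range. The log2 fold change was 1.03 ± 0.32 (SE) with an adjusted p of 0.0547, and the exact permutation test gave an unadjusted p of 0.0173 (n = 5 and 6). Without saline mouse 6 the log2 fold change was 1.25 with an adjusted p of 0.0124, and without saline mouse 3 it was 1.17 with an adjusted p of 0.0426. Over all 22 alternatives tried, its adjusted p lay between 0.0124 and 0.167. Exons of Cish overlap Gm17040 and Gm17041 on the opposite strand, which were at most at 0.452 CPM in any liver. Of the exon stretches of Cish, 6.75% also occurred, on either strand, in Gm17041 or Gm17040, the largest share among the members.

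The start of Cish carries a pair of STAT5-type motifs. All member windows that held the motif searched are shown here and below, whatever their gene. The motif searched was TTCNNNGAA, which reads the same on both strands, in RefSeq promoter windows of 300 bases (250 bases before to 50 bases after a start site, GRCm38.p6). Of 32851 such windows from 27025 genes, 2726 (8.3%) held at least 1 motif, 150 (0.457%) at least 2 and 11 (0.0335%) at least 3. Windows were at hand for 9 of the 10 members, with no entry for Socs2, and 5 of their 16 windows held the motif. Capitals mark the motif in the following 30 bases of Cish (chr9:107296654-107296683, plus strand), which lie in an annotated exon of the gene.
Cish: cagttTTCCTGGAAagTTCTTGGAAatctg

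A match to the motif is a description of these letters and does not show that STAT5 was bound in these livers. None of the windows of Ghr, Jak2, Stat5a, Stat5b, Cux2 and Igf1 held the motif, which says nothing of sites elsewhere in those genes.

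Bcl6 was the most variable member. It encodes a zinc-finger repressor whose binding sites in liver overlap those of STAT5 and lies on chromosome 16 (chr16:23965052-23988852, minus strand), where one of its exons overlaps Gm37419 on the opposite strand, a gene for which no value was used here. It was at 3.42, 6.64, 5.44 and 6.33 CPM in FSH mice 1, 2, 3 and 4, and at 17.8 CPM in FSH mouse 6. Saline livers ranged from 6.72 to 41.2 CPM (median 20.9). In that group saline mice 1, 2 and 4 were at 41.2, 30.0 and 30.4 CPM, and saline mice 3, 5 and 6 were at 10.2, 11.8 and 6.72 CPM. The coefficients of variation were 71.4% with FSH and 64.4% with saline.

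Bcl6 averaged 7.92 ± 5.66 CPM (SD) in the 5 FSH livers and 21.7 ± 14.0 CPM (SD) in the 6 saline livers. On the log2 scale the difference was -1.32 ± 0.45 (SE), with a 95% interval from -2.29 to -0.36 and an adjusted p of 0.0757. The exact permutation test gave an unadjusted p of 0.0433 (n = 5 and 6). Without FSH mouse 6 the log2 fold change was -1.66 with an adjusted p of 0.0227, and without saline mouse 6 it was -1.59 with an adjusted p of 0.0285. The adjusted p of Bcl6 lay between 0.0227 and 0.199 over the same alternatives.

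Both RefSeq start sites of Bcl6 have STAT5-type motifs before them, and their windows are shown because they held the motif. The first window lies before the outermost start (chr16:23988950-23988982, minus strand) and the second before an internal start (chr16:23981351-23981463, minus strand), and neither touches an annotated exon. The 3 motifs of the second window place it among the 11 windows (0.0335%) with that many. The capitals again mark TTCNNNGAA.
Bcl6 start 1: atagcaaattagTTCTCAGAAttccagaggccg
Bcl6 start 2: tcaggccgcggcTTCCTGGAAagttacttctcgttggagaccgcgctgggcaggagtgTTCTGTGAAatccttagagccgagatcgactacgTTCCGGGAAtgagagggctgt

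Cux2 had the largest fold change among the members. It encodes a homeodomain repressor of male-biased liver genes and lies on chromosome 5 (chr5:121856366-122050102, minus strand). The level was 25.5, 14.2, 20.7, 20.7 and 18.8 CPM in FSH mice 1, 2, 3, 4 and 6. Saline mice ranged from 2.61 to 9.22 CPM (median 4.78), with saline mouse 1 the highest and saline mouse 2 at 5.60 CPM. FSH mouse 2 was the lowest of its group and still above every saline liver. The log2 fold change was 1.94 ± 0.23 (SE), with a 95% interval from 1.44 to 2.43 and an adjusted p of 0.000111.

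Within the saline group, Bcl6 and the feedback inhibitors were arranged in opposite ways. The 3 saline livers with the most Bcl6 (mice 1, 2 and 4) had the lowest Cish, 3.40, 3.20 and 1.98 CPM, and the lowest Socs2, 8.30, 7.20 and 8.37 CPM. The other 3 saline livers had 6.85 to 11.4 CPM of Cish and 10.6 to 13.5 CPM of Socs2. In the FSH group, mouse 6 had the most Bcl6 and the least Cish (8.76 CPM), whereas its Socs2 (22.7 CPM) was close to that of FSH mice 2 and 4. This arrangement was noticed after the values had been seen and was not tested.

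The ratio of Bcl6 to Cish, both in CPM, summarises the same livers. It was 0.288, 0.566, 0.468, 0.632 and 2.03 in FSH mice 1, 2, 3, 4 and 6. It was 12.1, 9.39 and 15.3 in saline mice 1, 2 and 4, and 1.23, 1.72 and 0.590 in saline mice 3, 5 and 6. Saline mouse 6 thus lay inside the FSH range for Bcl6, Cish and their ratio, but its Cux2 of 2.61 CPM was the lowest of all livers and its Stat5b of 60.9 CPM the highest. For Cux2 the saline livers were arranged differently, since saline mouse 1 had the most of both Bcl6 and Cux2 and saline mouse 6 the least of both.

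**Figure D3:**
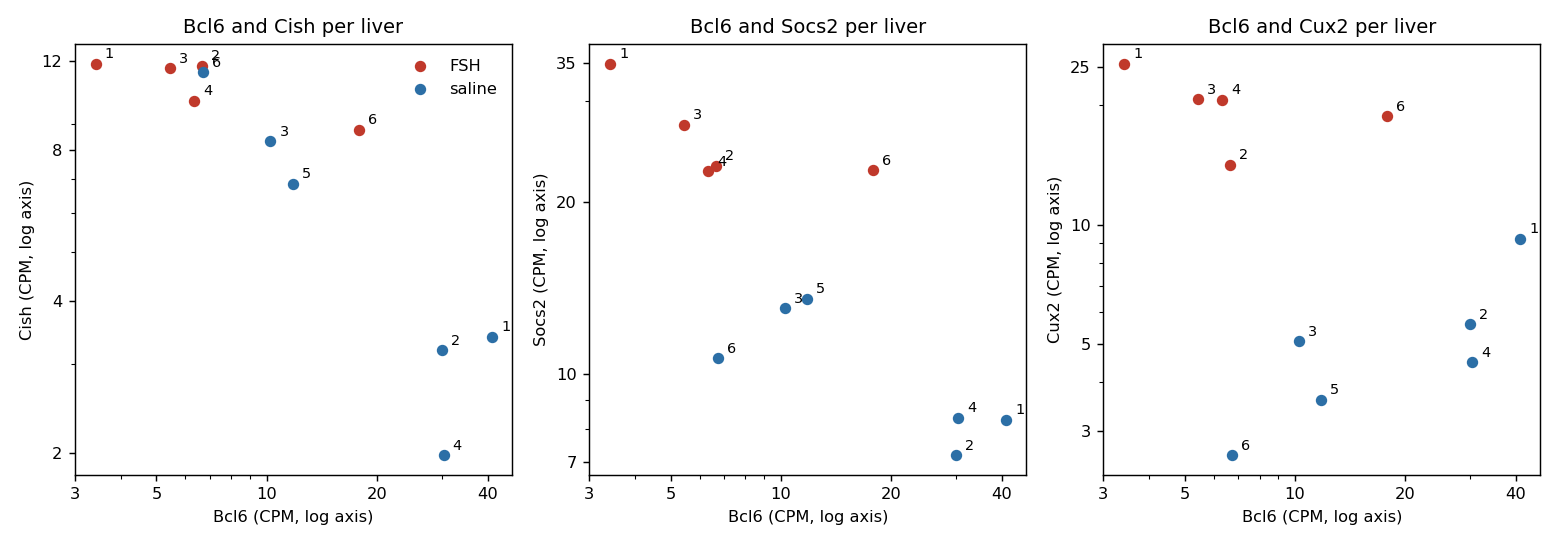
Bcl6 (CPM, log axis) against Cish, Socs2 and Cux2 (CPM, log axes), 1 point per liver with its mouse number, FSH in red and saline in blue. Saline mice 1, 2 and 4 lie at the right (30.0 to 41.2 CPM of Bcl6) with the least Cish and Socs2, and all FSH livers lie above all saline livers for Socs2 and Cux2.

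The secreted products of the axis did not pass the test. Igf1, the main endocrine mediator of growth hormone (chr10:87858265-87937042, plus strand), was at 585.9, 578.3, 652.0, 668.4 and 645.7 CPM in FSH mice 1, 2, 3, 4 and 6. Saline livers ranged from 435.5 to 698.8 CPM (median 671.9). Saline mice 2 (476.8 CPM) and 6 (435.5 CPM) were below every FSH liver, and the other 4 saline livers were between 661.0 and 698.8 CPM. Igf1 had a log2 fold change of 0.06, with a 95% interval from -0.21 to 0.34 and an adjusted p of 0.81.

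Igfals encodes the acid-labile subunit, which holds IGF1 in a circulating complex (chr17:24865997-24882010, plus strand). FSH livers were at 98.5, 108.6, 110.5, 127.0 and 149.7 CPM and saline livers between 106.6 and 145.9 CPM (median 114.5), so that FSH mice 1 and 6 lay outside the saline range on either side. The lowest saline liver was that of mouse 2. Igfals had a log2 fold change of -0.03, with a 95% interval from -0.28 to 0.22 and an adjusted p of 0.91. Both intervals lie below the lower bounds of those of Socs2 (0.97) and Cux2 (1.44).

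A STAT5-type motif was also found before 2 of the 3 start sites of Igfals, at chr17:24877596-24877628 and chr17:24878161-24878193 (plus strand). They are shown because these windows held the motif. The members with a motif in a window (Cish, Bcl6 and Igfals) were all without a called difference.
Igfals start 1: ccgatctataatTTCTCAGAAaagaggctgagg
Igfals start 2: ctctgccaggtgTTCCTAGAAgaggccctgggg

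Levels of different genes were compared as CPM per kilobase of annotated exon. In saline livers the order from the highest mean was Igf1 (61.4), Ghr (48.0), Igfals (38.2), Stat5b (9.89), Bcl6 (3.24), Jak2 (2.41), Stat5a (2.11), Socs2 (1.07), Cish (0.912) and Cux2 (0.506). The livers' ranges overlapped between neighbours in this order except between Igfals and Stat5b, Stat5b and Bcl6, and Stat5a and Socs2. In FSH livers the first 4 genes kept their order, at 63.2, 52.3, 37.5 and 7.16 CPM per kilobase, and were followed by Socs2 (2.74), Jak2 (2.42), Cux2 (1.98), Cish (1.68), Stat5a (1.40) and Bcl6 (1.18). There the ranges of Igf1, Ghr, Igfals, Stat5b and Socs2 did not overlap from one gene to the next, whereas the ranges of Socs2 and Jak2, and of each further pair down to Bcl6, overlapped. Bcl6 was thus the fifth of the 10 members by mean level in saline livers and the last in FSH livers, and Socs2 moved from the eighth place to the fifth.

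Of 23 other genes of growth hormone signaling, listed as partners and feedback genes of the receptor, 22 were tested, 0 were higher and 2 were lower in limma's test (9.09%, against 10.6% of all genes tested), with a median log2 fold change of -0.02. At an unadjusted p under 0.05, and with edgeR and DESeq2, the counts were also 0 and 2, where 25.1% of all genes tested passed by unadjusted p. Irs2, an insulin receptor substrate that also serves the growth hormone receptor, was at 1.30 to 8.998 CPM with FSH and 5.48 to 16.7 CPM with saline (log2 fold change -1.45, adjusted p 0.0168). Grb2, an adaptor toward the RAS pathway, was at 42.8 to 50.04 CPM with FSH and 57.4 to 59.7 CPM with saline (log2 fold change -0.34, adjusted p 0.00562). Sirpa, which binds the phosphatase SHP2, did not pass (log2 fold change -0.30, adjusted p 0.272), nor did Stat3 above.

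Of the 14 listed IGF ligands, receptors, binding proteins and their proteases, 8 were tested, 1 was lower and 0 were higher in limma's test (12.5%, against 10.6% of all genes tested), with a median log2 fold change of -0.05. By unadjusted p under 0.05 the counts were 1 lower and 2 higher, where 25.1% of all genes tested passed, while edgeR and DESeq2 gave 1 and 0. Igfbp1, a secreted IGF-binding protein that insulin represses, was at 60.5 to 177.2 CPM with FSH and 156.3 to 659.7 CPM with saline (log2 fold change -1.50, adjusted p 0.0093). Igfbp2, the most abundant of those named here, was at 588.4 to 922.7 CPM with FSH and 762.4 to 1082 CPM with saline (log2 fold change -0.22, adjusted p 0.308). Igfbp5 and Igfbp6 had log2 fold changes of 0.80 and 0.90 with adjusted p of 0.171 and 0.105. Without saline mouse 2, those of Igfbp5 and Igfbp6 were 1.04 and 1.16 with adjusted p of 0.0496 and 0.0144.

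Among 17 transcription factors tied to sex-biased liver expression, 16 were tested, 3 were higher and 2 were lower (against 6.19% and 4.41% of all genes tested), and the median log2 fold change was 0.05. Trim24, a cofactor of nuclear receptors, was at 37.7 to 51.9 CPM with FSH and 23.1 to 34.0 CPM with saline (log2 fold change 0.68, adjusted p 0.00162). Esr1, the estrogen receptor alpha gene, was at 39.4 to 51.4 CPM with FSH and 25.9 to 38.3 CPM with saline (log2 fold change 0.47, adjusted p 0.0103). For both genes the groups did not overlap. Onecut1 (log2 fold change 0.87, adjusted p 0.0376) and Hnf4a (log2 fold change -0.44, adjusted p 0.0369), which encode hepatocyte regulators, passed in 10 and 12 of 22 alternatives. Foxa3, named after its values were seen as the remaining called gene, passed in 11 of 22 (log2 fold change -0.36, adjusted p 0.0415).

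Male-biased and female-biased liver genes were examined because growth hormone controls them. Of 31 female-biased genes tested, 7 rose with FSH and 0 fell in limma's test (22.6% called, against 10.6% of all genes tested), and the median log2 fold change was 0.22. An unadjusted p under 0.05 was reached by 10 higher and 1 lower genes, of all genes tested by 25.1%, and edgeR called 7 and DESeq2 9 higher and each 0 lower. Acot3, a peroxisomal acyl-CoA thioesterase gene, rose from 73.8 ± 17.2 CPM (SD, n = 6) to 233.0 ± 26.4 CPM (SD, n = 5), a log2 fold change of 1.68 with an adjusted p of 6.98e-06 in limma. Acot4, a thioesterase gene of the same family, rose by 0.83 (adjusted p 0.000463). Cyp2a4, a steroid-hydroxylating cytochrome P450 gene, rose by 0.99 on the log2 scale (adjusted p 0.00374), and Fmo2, a flavin monooxygenase gene, by 0.92 (adjusted p 0.00691). The other called genes of this list, named after their values were seen, were Hamp2 (1.09), Cyp17a1 (0.75) and Fmo4 (0.68). Fmo4 passed in 13 of 22 alternatives.

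Of 30 male-biased genes, 24 were tested, 1 was higher and 5 were lower (against 6.19% and 4.41% of all genes tested), with a median log2 fold change of -0.12. By unadjusted p under 0.05 the counts were 1 higher and 6 lower, where 25.1% of all genes tested passed, and edgeR and DESeq2 each gave 1 and 5. Cyp2f2, a cytochrome P450 gene, fell from 657.9 ± 30.9 CPM (SD, n = 6) to 344.0 ± 46.1 CPM (SD, n = 5), a log2 fold change of -0.94 with an adjusted p of 2.27e-05 in limma. Selenbp2, a selenium-binding protein gene, fell by 1.03 on the log2 scale (adjusted p 0.00697) and Mup20, a major urinary protein gene, fell by 0.90 (adjusted p 0.0135). Nudt7, which encodes a peroxisomal CoA diphosphatase, went the other way with a log2 fold change of 1.37 (adjusted p 0.000194). Elovl3 (-1.58) and C8b (-0.46), named after their values were seen, completed the called genes, and C8b passed in 12 of 22 alternatives. The study itself singled out Elovl3 from these livers, so it is not independent evidence of the list's direction. Nor are the other genes of this and the female-biased list, since the lists were chosen with earlier results of these data known. Members of the Mup and Cyp2a families have near-identical copies, and their counts are uncertain where reads were split between them.

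FSH mouse 2 stood apart from the other FSH livers on both lists. It was the highest of the 5 FSH livers for 19 of 24 male-biased genes and the lowest for 18 of 31 female-biased genes. How often this liver was highest or lowest over all genes tested was not counted. Whether these places are particular to the lists can therefore not be told. Slco1a1, a male-biased organic anion transporter gene, was at 173.8 CPM in FSH mouse 2, between 3.88 and 20.9 CPM in the other FSH mice and between 10.5 and 44.7 CPM in saline mice. Cyp2d9, a male-biased cytochrome P450 gene, was at 121.8 CPM there and between 29.4 and 36.6 CPM in the other FSH mice. Sult2a1, a female-biased sulfotransferase gene, was at 3.47 CPM in FSH mouse 2, between 209.1 and 517.9 CPM in the other FSH mice and between 77.1 and 520.8 CPM in saline mice. Cyp3a41a, a female-biased cytochrome P450 gene, was at 41.5 CPM there and between 755.4 and 1458 CPM in the other FSH mice. These 4 genes, none of which passed the test between groups, were named after their values were seen. Without FSH mouse 2, Slco1a1 passed with a log2 fold change of -1.52 (adjusted p 0.0447).

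Saline mouse 2 was the lowest of the 6 saline livers for 11 of 31 female-biased genes and the highest for 3 of 24 male-biased genes. Saline mouse 4 was the highest of the 6 saline livers for 11 of 24 male-biased genes. Without FSH mouse 2, the median log2 fold change was -0.31 over the male-biased list (23 genes then passed the filter, 1 higher and 6 lower) and 0.46 over the female-biased list (6 higher and 0 lower). FSH mouse 2 was mostly the highest FSH liver for male-biased and the lowest for female-biased genes. Shifts of the medians in these directions follow from those places. With FSH mouse 2 and saline mouse 2 both left out, the medians were -0.38 and 0.42, with 1 higher and 5 lower male-biased and 7 higher and 0 lower female-biased genes. Among the members, the Cux2 value of FSH mouse 2 (14.2 CPM) was the lowest of the FSH livers, and its Bcl6 of 6.64 CPM lay within the range of the other FSH livers.

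**Figure D4:**
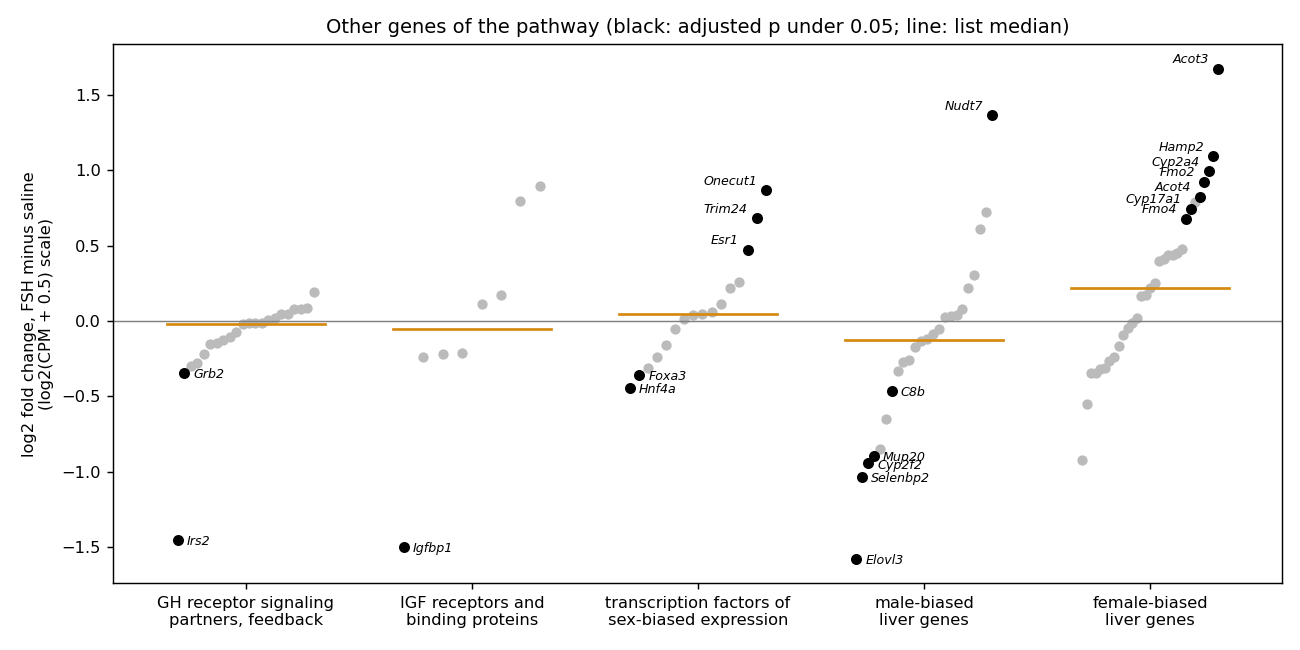
Log2 fold change (FSH minus saline, log2(CPM + 0.5) scale) of every tested gene of the 5 pathway lists, 1 point per gene, with the list's median as an orange line. Black points with names had an adjusted p under 0.05. All called female-biased genes lie above 0, and 5 of the 6 called male-biased genes lie below it.

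Other measures moved with the groups and are given here beside the members. Of 18 clock genes tested, 12 were called (6 higher and 6 lower), against 10.6% of all genes tested. Arntl, a core clock activator, was at 2.06 to 5.08 CPM with FSH and 13.2 to 22.8 CPM with saline, and Dbp, a clock output gene, was at 42.6 to 121.0 CPM with FSH and 3.40 to 4.95 CPM with saline. The hour at which livers were collected is not given in the sources used here, and the part of the clock in the differences of Cux2, Socs2, Stat5a and Stat5b was not tested.

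The 6 hepatocyte markers (among them Alb, Apoa1 and Cps1) summed to 99234 to 118078 CPM with FSH and 93420 to 119496 CPM with saline, and 1 of them, Ass1, was called (higher). The 5 Kupffer cell markers summed to 91.9 to 249.1 CPM with FSH and 149.4 to 299.4 CPM with saline, with 5 of 5 log2 fold changes below 0 and 0 called by limma (2 lower at an unadjusted p under 0.05, 0 called by edgeR and 1 by DESeq2). Of the 5 stellate markers (191.3 to 263.5 against 218.0 to 298.4 CPM) 0 were called, with 5 of 5 log2 fold changes below 0. Of the 5 endothelial markers (108.5 to 161.8 against 125.6 to 150.7 CPM) 1 was called, Lyve1 (lower), with 4 of 5 log2 fold changes below 0 and 2 lower at an unadjusted p under 0.05. Of the 5 cholangiocyte markers (47.6 to 69.4 against 38.3 to 55.7 CPM) limma called 1, Krt7 (higher), while Sox9 did not pass (log2 fold change -0.50, adjusted p 0.0545) and DESeq2 called 1 marker higher and 1 lower. Erythroid markers summed to 334.7 to 579.0 against 297.3 to 747.9 CPM, and 0 of 4 were called. Lymphocyte markers summed to 2.21 to 4.52 against 1.83 to 6.20 CPM, and 0 of 4 tested were called. For the stellate, erythroid and lymphocyte markers the counts were also 0 at an unadjusted p under 0.05 and with edgeR and DESeq2. The adipocyte markers summed to 1.40 to 7.30 against 1.18 to 3.76 CPM, nearly all of it Cidec, which did not pass (log2 fold change 0.17, adjusted p 0.803), and Lep was listed at 0 in every liver. Pancreatic acinar markers summed to 0.510 to 1.21 against 0.166 to 0.685 CPM, nearly all of it Cela2a, which did not pass either (log2 fold change 0.69, adjusted p 0.0641), and Pnlip and Cel were listed at 0 in every liver. The part of these cell types in the members' differences was not tested.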

How the data were processed

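Liver RNA (NEBNext Ultra libraries, paired 100-base HiSeq reads) was analysed for 5 FSH and 6 saline mice. The authors deposited CPM values per Ensembl gene, scaled to 1000000 per library and unfiltered. The submitters' processing notes name FastQC 0.11.2, Trim Galore 0.3.3, cutadapt, STAR, RSEM and mm10. The annotation release and strand setting are not given in the sources used here. Symbols were matched by identifier to GENCODE M21 (35555 of 36788 named). All values (100%, tolerance 0.01) were whole multiples of 1 read, which gave depth and the reads for edgeR 4.0.16 and DESeq2 1.42.0 as alternatives. Intervals cover the spread between livers, and a count of 0 allows up to 3 reads (counting error only).

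The 12733 genes averaging 0.5 CPM or more were tested with limma 3.58.1 (R 4.3.3, eBayes with trend) on log2(CPM + 0.5) without covariates. Single genes also had an exact two-sided permutation test (scipy 1.17.1). Functions were tested on simulated data. No pair of libraries within a group was near-identical (lowest chi-square per gene 10.6). The members, the 5 pathway lists, the clock list and the 9 marker lists (hepatocyte, cholangiocyte, Kupffer, stellate, endothelial, lymphocyte, acinar, adipocyte, erythroid) were chosen with earlier results of these data known. Named were all members and, per pathway list, the genes past both thresholds or, with fewer than 4, the 4 with the smallest p. For the 3 called members with the largest fold change, the 3 genes with the most similar profile were also named. Other named genes are marked as such.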

Additional observations from a re-analysis of the deposited data

Results flagged for a closer look

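Bcl6 in FSH mouse 6 stood apart from its group. Its 17.8 CPM was separated from the next liver by 0.776 of the group's whole range, above the critical value of 0.71 for 5 livers in Dixon's test. Among the other genes named in the text, single livers stood apart in the same way for 9 of them. FSH mouse 2 was high for Irs2 (8.998 CPM, 0.716 of the range) and for Mup20 (244.1 CPM, 0.825 of the range), and also for Cidec (7.30 CPM, 0.761 of the range). It was high as well for Slco1a1 (173.8 CPM, 0.9 of the range) and Cyp2d9 (121.8 CPM, 0.922 of the range), which had been named because this liver stood apart for them. FSH mouse 6 was high for Hnf4a (445.2 CPM, 0.739 of the range), and FSH mouse 1 was high for Cyp2a4 (2355 CPM, 0.825 of the range). FSH mouse 3 was low for Selenbp2 (8.67 CPM, 0.809 of the range). Saline mouse 2 was high for Stat3 (101.6 CPM, 0.628 of the range, just above the critical value for 6 livers). In all, 114 groups of livers over 57 genes were examined and 10 were marked, where chance alone marks about 1 in 20 groups.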

How the results depend on the processing

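Cux2, Socs2, Stat5a and Stat5b kept their direction and an adjusted p under 0.05 in all 22 alternatives (other pseudocounts, filters and scalings, no trend, a replicate block, edgeR and DESeq2 on the recovered reads, each liver left out, and FSH 2 and saline 2 left out together). Their log2 fold changes ranged from 1.79 to 2.11, 1.23 to 1.42, -0.66 to -0.51 and -0.50 to -0.42. Cish and Bcl6 passed in 2 of 22 each, those named above. Ghr, Jak2, Igf1 and Igfals passed in 0, and the sign of the last 3 changed in some. Of 21 called genes of the pathway lists, 16 passed in every alternative and 5 (Hnf4a, Foxa3, Onecut1, C8b and Fmo4) did not. All 5 lost the call with no filter on low values. They also lost it without 1 liver: Hnf4a without FSH 1, 2, 3 or 4 or saline 2, 4 or 6, Foxa3 without FSH 1, 2, 3 or 4 or saline 1, 4, 5 or 6, Onecut1 without FSH 1, 2, 3 or 4 or saline 1, 2, 4 or 5, C8b without FSH 1, 3, 4 or 6 or saline 2, 3, 4 or 5, and Fmo4 without FSH 1, 2, 3 or 4 or saline 1, 3 or 4 (adjusted p at most 0.112). Transcription factor calls fell from 5 to 2 with no filter, to 2 without the trend and to 2 with FSH 2 and saline 2 left out, and IGF gene calls were 2 in the last case. The cause was not tested.

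Leaving out single livers gave 803 (without FSH mouse 1) to 1659 genes called and 197 to 273 past both thresholds. For the members it gave 4 to 6 and, past both thresholds, 2 to 4 (4 without saline mouse 6). The ranges were 2 to 2 for receptor partners, 1 to 3 for IGF genes (3 without saline mouse 2), 2 to 5 for transcription factors, 5 to 7 for male-biased and 6 to 8 for female-biased genes. edgeR called 1435 genes and DESeq2 1740.

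The numbers were not taken as pairs, since the labels give them no meaning and not every number deviated together (correlations 0.065, 0.356, 0.019, 0.137 and -0.066 for numbers 1, 2, 3, 4 and 6, with number 2 the 1 of 5 that matched best with itself). With the replicate number as a block, which drops saline mouse 5, 1210 genes and 4 members were called, with Cux2 at 1.87, Socs2 at 1.42, Stat5a at -0.54, Stat5b at -0.45, Cish at 1.11 (adjusted p 0.0517) and Bcl6 at -1.44 (adjusted p 0.116). Onecut1 and Fmo4 lost their calls there (adjusted p 0.125 and 0.0655).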

Other observations

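The genes whose profiles over the 11 livers were most like those of the 3 called members with the largest fold changes are given as a description. Likeness was the mean absolute log2 difference between profiles centred on their own mean, over 11814 named genes. Closest to Cux2, whose own mean deviation was 0.962, were Thrsp (0.317), a lipogenic regulator, Aacs (0.368), a cytosolic acetoacetyl-CoA synthetase gene, and Pmvk (0.398), a gene of cholesterol synthesis. Thrsp was at 1385 ± 433.4 CPM (SD) in the 5 FSH livers and 389.2 ± 173.7 CPM (SD) in the 6 saline livers. Aacs was at 184.8 ± 58.4 CPM with FSH and 46.4 ± 16.1 CPM with saline, and Pmvk at 153.1 ± 38.2 and 58.9 ± 11.2 CPM.

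Closest to Socs2 (own mean deviation 0.661) were Chrna1os (0.215), Haus7 (0.217), which encodes a subunit of the augmin complex of the spindle, and Spc24 (0.222), a kinetochore gene. Haus7 was at 19.5 ± 2.22 CPM with FSH and 10.1 ± 1.96 CPM with saline, and Spc24 at 22.3 ± 3.48 and 9.06 ± 0.823 CPM. Chrna1os was low, at 2.56 ± 0.5997 and 0.974 ± 0.251 CPM. Closest to Stat5a (own mean deviation 0.282) were Sgpl1 (0.0904), a sphingosine phosphate lyase gene, Hsd3b7 (0.0947), a bile acid synthesis gene, and Rrbp1 (0.0952), a ribosome-binding protein of the endoplasmic reticulum. All 3 were lower with FSH, with log2 fold changes of -0.44, -0.62 and -0.45. As these profiles include the difference between groups, likeness holds that difference as well as the order of livers within groups.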
